A study of Verbena bonariensis with 6 samples.

Results

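Ethylene-responsive factors (ERFs) and RAV proteins are plant transcription factors that bind DNA through an AP2 domain. The set described here holds 219 of the 8147 gene clusters measured in this study, and 219 of the 425 clusters of its AP2-EREBP family. A cluster is a group of assembled transcripts treated as a gene. The members were chosen by annotation alone: every cluster of the family was taken except those whose best Swiss-Prot description names a dehydration-responsive element-binding protein (30 clusters), an AP2-like or developmental AP2 protein (100 clusters), an ERF of the low-oxygen group VII (12 clusters) or an ERF of group IX (64 clusters). What remains is ordered below by the group numbers used for the Arabidopsis ERF family, with 16 RAV clusters, 21 of group X, 17 of group V, 15 of group VIII, 33 of group VI, 71 of the DREB subfamily named as ERF, RAP2 or ABI4, 44 others and 2 without a Swiss-Prot description. The best NR protein hit of these 2 is a RAP2-7-like protein.

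RNA was sequenced from roots of 2-month-old Verbena bonariensis, a garden ornamental, of the cultivar Finesse. The control group received no cadmium solution, and the cadmium group was exposed to cadmium, a toxic metal, at 100 mg/kg for 20 days. The labels call the 3 libraries of each group biological replicates, and the sources used here do not give the number of plants behind each library. Both groups carry the same cultivar and no transgene is named.

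In Arabidopsis, tobacco and tomato, ERFs act at the end of ethylene signalling and also answer jasmonate, abscisic acid, wounding and redox change. Group VIII is best known for ERFs with the short EAR repression motif, such as ERF3, ERF4, ERF9 and ERF12, which lower the activity of the genes they bind, and it also holds the developmental genes LEP, ESR2 and ERF086, which are not of that type, group VI holds the cytokinin response factors (CRFs), and several group X members are induced by wounding and oxidative stress. RAV proteins carry a second DNA-binding domain, B3, and are known in Arabidopsis as repressors of growth and flowering.

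The annotation matched these names in most clusters. An AP2 domain was annotated in 212 of the 219 members, and a B3 domain in 16 of 16 RAV clusters and in 0 clusters outside RAV. The members carry 49 Swiss-Prot descriptions and 92 best NR proteins, of which 45 hold 1 member cluster. For 178 members the best NR hit lies in sesame (Sesamum indicum), so a name gives the closest known relative and not a proven Verbena ortholog.

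Regulator counts summed to 1207479 to 1340255 per control library and 1092183 to 1228042 per cadmium library, which was 6.447% to 6.519% of the recovered library totals in control and 5.231% to 5.533% in cadmium. Levels are given as CPM, the count of a cluster scaled to the regulator total of its library after TMM normalisation (trimmed mean of M-values), as mean ± SD (n = 3 per group) or per library in the order of replicates 1 to 3, and fold changes are cadmium against control. Scaling to whole-library totals, in place of TMM-normalised regulator totals, moved the median log2 fold change of all regulators from −0.08 to −0.43. Of 11 root marker genes, 7 (PLT1, PLT2, AIL7, WOX5, LBD16, SCARECROW and LATERAL ROOT PRIMORDIUM 1) were higher in every cadmium library than in any control library. The groups overlapped for LBD18, LBD29 and SHORT-ROOT, the last at 892 to 1041 CPM in control and 713 to 930 CPM in cadmium. The summed level of the root list was 3291 to 3592 CPM in control and 4382 to 6394 CPM in cadmium. The root-hair regulator bHLH83 went the other way, at 37.9 to 46.9 CPM in control and 10.3 to 12.7 CPM in cadmium, as did the summed green-shoot list, at 1533 to 1845 and 1242 to 1304 CPM. Most of that sum was GLK1, at 1212 to 1479 CPM in control and 920 to 1047 CPM in cadmium, and TCP4 was also lower. GLK2 was at 0 in control and 4.24 to 5.62 CPM in cadmium, and the groups overlapped for YABBY 2. The flower marker AGAMOUS was at 0 in the controls and at 0 to 4.68 CPM in cadmium. The part of these shifts in the results below was not tested, and in whole roots fewer cells of a type and less RNA per cell cannot be told apart.

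Cadmium-treated roots held more RAV1 and ABR1 transcripts and fewer transcripts of the ERF4 repressors, ERF109, CRF2 and the ERF017 and ERF025 relatives. Of the 219 members, 144 passed the filter on low counts, 35 of them were higher and 39 lower in cadmium, and 70 did not pass the test (quasi-likelihood test of edgeR at a Benjamini-Hochberg adjusted p of 0.05). The 74 changed clusters are 51.4% of the members tested, and the background over all 4846 regulators tested was 30.5% (15.8% higher and 14.6% lower). The median log2 fold change was −0.29 over the members tested and −0.08 over all regulators tested. At least 2-fold changes were 29 higher and 31 lower, with a background of 21.3%. Scaled to whole-library totals, 29 members of 143 tested rose and 51 fell, with a median of −0.69 and a background of 34.0% (10.9% higher and 23.1% lower).

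For all 74 changed members the 2 groups of libraries were fully apart, and the same was true of 99 of the 144 tested (68.8%), against 53.5% of all regulators. The adjusted p of the changed members ran from 6.83e-05 to 0.0486 (edgeR). Of these calls, 54 held with each of the 6 libraries left out in turn, and 20 ended without at least 1 library. In the authors' deposited table, among the tested members, 76 had a q-value below 0.05, 35 higher and 41 lower. The deposited table and the present test shared 69 of these calls in the same direction and 0 in opposite directions.

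Near-identical clusters can split reads between them, so counts were also summed over all clusters with the same best NR protein. Such a sum can include clusters that carry another name or lie outside the members. Of 74 NR proteins tested, 26 were higher and 25 lower in cadmium, against a background of 60.3% of all 2070 NR proteins tested (30.4% higher and 29.9% lower). These sums are named as protein sums below. Summed over the Swiss-Prot description instead, 17 of 44 names tested were higher and 17 lower, against a background of 56.6% of 1502 names tested (28.6% higher and 28.0% lower).

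**Figure D1:**
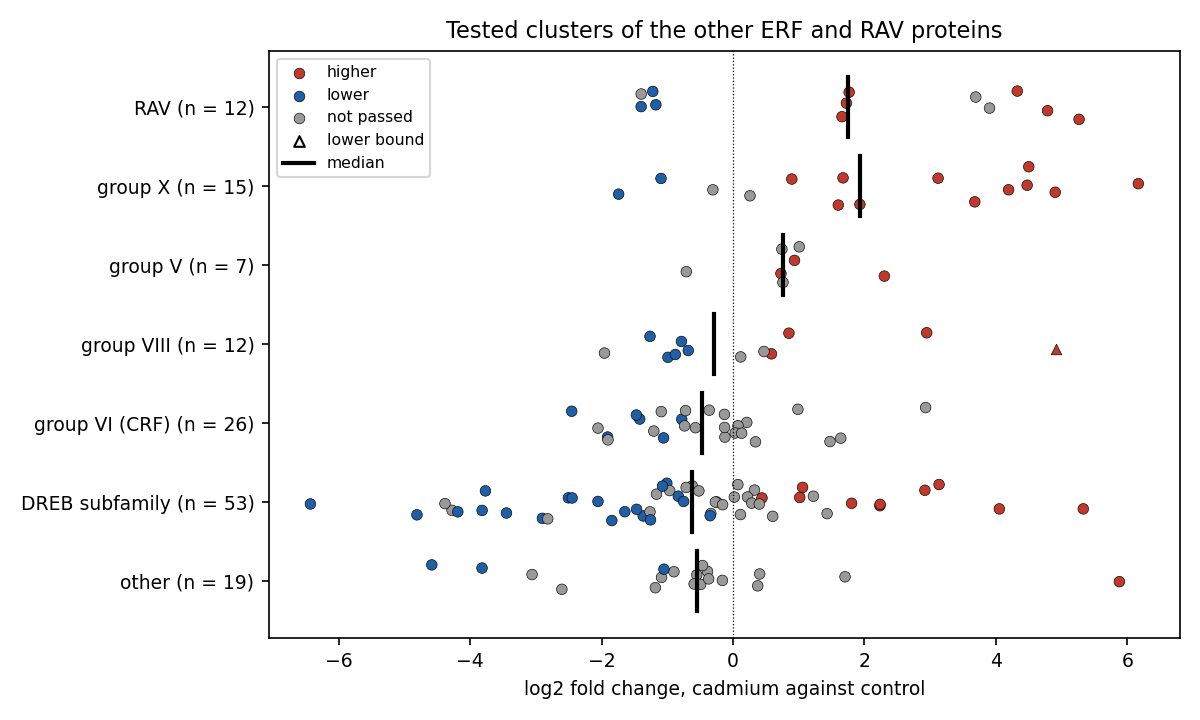
Log2 fold change (cadmium against control) of each of the 144 tested member clusters, by group, with red points higher, blue points lower and grey points not passed (edgeR, adjusted p below 0.05); black bars are group medians and the triangle is the lower bound for LEP, which was at 0 in the controls. RAV and group X lie mostly to the right, with medians of 1.75 and 1.93, and the DREB subfamily and group VI mostly to the left, with medians of −0.62 and −0.47.

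RAV transcripts separated by gene. Of 12 tested RAV clusters 6 were higher, all named RAV1, and 3 were lower, all named after the Arabidopsis gene At1g51120, with a median of 1.75. The 16 RAV clusters together took 0.421% ± 0.0423 of the regulator counts in control and 1.45% ± 0.156 in cadmium (two-sided exact permutation p = 0.1, the lowest value that 3 libraries against 3 can give). The 3 cadmium libraries all lay above the 3 controls, at 1.39%, 1.34% and 1.63% against 0.409%, 0.467% and 0.385%. On the scale of whole-library totals, 6 clusters stood higher and 4 lower. The share of tested RAV clusters that changed was 75.0%, beside 30.5% of all regulators, and 90.9% beside 34.0% with whole-library totals.

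The named RAV1 cluster (Cluster-9033.80651) stood at 851, 1015 and 830 CPM in control and at 2888, 2751 and 3274 CPM in cadmium. Every cadmium library held more than any control, and the log2 fold change was 1.73 ± 0.11 (SE, edgeR, adjusted p = 0.000202). The clusters Cluster-9033.79794 and Cluster-9033.78640, chosen after their values were seen, rose alongside it, from 1589 ± 213 to 5409 ± 759 CPM and from 823 ± 89.7 to 2597 ± 258 CPM. All 3 share a best NR protein with 4 more clusters. Their protein sum was 3199, 3701 and 2929 CPM in control and 10387, 9948 and 12370 CPM in cadmium, 3.33-fold higher (edgeR, adjusted p = 1.51e-06).

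A second RAV1-like protein, described after its values were seen, started far lower and rose further. Its 4 clusters summed to 117, 138 and 143 CPM in control and to 3560, 3282 and 4570 CPM in cadmium, with no cadmium library near the controls. The fold was 28.7 (log2 fold change 4.84, edgeR, adjusted p = 3.36e-08). Its main member, Cluster-9033.37356 went from 14.6, 86.6 and 88 CPM to 2161, 2115 and 2979 CPM. Its smallest called cluster, Cluster-9033.46180, held 2 counts over the controls and 59 over the cadmium libraries, a ratio of 33.3 with an exact counting interval of 8.82 to 281 that covers counting error only, and its call ended without any 1 of 5 libraries.

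The At1g51120 clusters moved down. Cluster-9033.69768 was at 179, 222 and 125.1 CPM in control and 68.7, 77.7 and 52.8 CPM in cadmium, with a log2 fold change of −1.40 ± 0.27 (SE, edgeR, adjusted p = 0.0116). The other 2 called clusters, Cluster-9033.69765 and Cluster-9033.69766, lost their calls without cadmium replicate 3, and without it 1 RAV cluster in place of 3 passed as lower. The protein sum over 5 clusters was lower in every cadmium library, at 679, 768 and 627 CPM against 309, 300 and 256 CPM (log2 fold change −1.26, edgeR, adjusted p = 1.3e-05).

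Group X had 11 clusters higher and 2 lower of 15 tested, with a median log2 fold change of 1.93. Scaled to whole-library totals, 10 clusters rose and 3 fell. On either scale 86.7% of the tested clusters changed, beside 30.5% of all regulators with TMM and 34.0% with whole-library totals. The share of the whole group in the regulator counts was 0.949% ± 0.0644 in control and 0.932% ± 0.0134 in cadmium (two-sided exact permutation p = 0.9). ERF109 fell and the other changed members rose, and on this scale their counts nearly balanced. As a share of the whole library the group took 0.0615% ± 0.00384 in control and 0.0501% ± 0.000858 in cadmium, without overlap (two-sided exact permutation p = 0.1, the minimum for this design).

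ABR1, which represses abscisic acid responses in Arabidopsis, had 6 of 6 tested clusters higher, with log2 fold changes from 3.12 to 4.90. The calls of Cluster-9033.9588 and Cluster-9033.9589 ended without any 1 of 5 and of 4 libraries, and the former had an adjusted p of 0.0521 with whole-library totals (edgeR). In Cluster-9033.157329 the controls held 7.32, 5.66 and 8.88 CPM and the cadmium libraries 193, 207 and 263 CPM. The groups were far apart relative to their spread, and the log2 fold change was 4.90 ± 0.26 (SE, edgeR, adjusted p = 0.000117). Summed over all 7 clusters named ABR1, the level was 74.6 ± 4.54 CPM in control and 1502 ± 134 CPM in cadmium, 20.1-fold higher (edgeR, adjusted p = 4.33e-08).

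The clusters named ABR1 fall under 4 NR proteins. A protein with 4 ABR1 clusters went from 63.4, 55.8 and 62 CPM to 1176, 1124 and 1355 CPM (20.1-fold, edgeR, adjusted p = 1.21e-08). Cluster-9033.157329 shares its own NR protein with clusters named ERF110 and ERF115, and that sum rose by 2.03 on the log2 scale, from 217, 285 and 204 CPM to 958, 894 and 1021 CPM. Its single-cluster value is thus over 1.5 times the log2 fold change of its protein sum.

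ERF115, which in Arabidopsis restores root stem cells after damage, had 1 tested cluster (Cluster-12133.0). The best NR hit of this cluster is a partial ERF114 protein of Vitis vinifera, and the other ERF115 cluster has an ABR1-like best hit. The name thus does not show that an ERF115 gene rose. Cluster-12133.0 held 0, 0 and 0.81 CPM in control and 22.1, 29 and 27.7 CPM in cadmium. With 1 count over the controls and 89 over the cadmium libraries the ratio was 100.43, with an exact counting interval of 17.6 to 4011 that covers counting error only (edgeR, adjusted p = 0.00653). Of the 11 root markers 7 were higher in every cadmium library, among them the root-apex genes PLT1, PLT2 and WOX5. They stood at 2.93 to 17.8, 16.1 to 33.1 and 0.73 to 4.05 CPM in control. In cadmium they stood at 38.2 to 88.2, 88.2 to 196 and 13.6 to 18.7 CPM. The groups overlapped for LBD18, LBD29 and SHORT-ROOT, and bHLH83 was lower in every cadmium library. A link of these markers to ERF115 was not tested.

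ERF113, known in Arabidopsis for wound healing and shoot regeneration, was higher in both of its clusters. Cluster-9033.86400 rose from 2114, 2179 and 1790 CPM to 3910, 3832 and 3566 CPM (log2 fold change 0.89 ± 0.09, SE, edgeR, adjusted p = 0.00102). The lower-count Cluster-9033.69911, chosen after its values were seen, rose from 79.9 ± 15.5 to 242 ± 50 CPM. Both were single under their NR protein, so a sum adds nothing there.

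ERF110 was less uniform. Cluster-9033.143289 rose from 207, 282 and 195 CPM to 746, 679 and 756 CPM (log2 fold change 1.67 ± 0.16, SE, edgeR, adjusted p = 0.00086). Cluster-9033.107480, chosen after its values were seen, rose from 45.5 ± 22.1 to 174 ± 45.7 CPM, but its protein sum over 5 clusters did not pass, at 745, 667 and 646 CPM in control and 731, 735 and 712 CPM in cadmium (edgeR, adjusted p = 0.404). In that protein Cluster-9033.100070 had 555 ± 130 CPM in control and 449 ± 24.6 CPM in cadmium and did not pass.

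ERF109, a redox-responsive factor that links jasmonate to lateral root formation in Arabidopsis, was the member of the group that fell. Cluster-9033.78469 stood at 4230, 5054 and 4593 CPM in control and at 2124, 2155 and 2211 CPM in cadmium. Its log2 fold change was −1.10 ± 0.08 (SE, edgeR, adjusted p = 0.00026). The second cluster, Cluster-9033.53353, fell by 1.74, and the sum of the pair fell by 1.23 on the log2 scale (edgeR, adjusted p = 2.39e-06).

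Group V was sparsely expressed, with 7 of 17 clusters tested, 3 higher and 0 lower (42.9% changed, beside 30.5% of all regulators). These calls were not firm: with whole-library totals 0 rose and 1 fell, and leaving out 1 library left 0 or 1 higher. As protein sums, 4 were higher, 1 was lower and 2 did not pass, beside a background of 60.3% of all NR proteins tested. ERF003 (Cluster-9033.18380) was at 92.2, 74.5 and 66.2 CPM in control and 182, 155 and 108.1 CPM in cadmium (log2 fold change 0.94 ± 0.26, SE, edgeR, adjusted p = 0.0371). Its lowest cadmium library lay just above its highest control, its call ended without any 1 of 5 libraries, and with whole-library totals its adjusted p was 0.128 (edgeR). A second ERF003 cluster, Cluster-9033.141175, chosen after its values were seen, went from 459 ± 138 to 761 ± 35.9 CPM, and its adjusted p of 0.045 rose to 0.242 with whole-library totals (edgeR). The 1 lower protein sum of the group also carries the name ERF003. It was at 51.8, 35.8 and 40.55 CPM in control and 21.9, 26.8 and 22.3 CPM in cadmium (log2 fold change −0.85, edgeR, adjusted p = 0.035). Proteins named ERF003 thus went both ways.

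RAP2-11, which answers low potassium in Arabidopsis roots, was higher in Cluster-18134.0, at 4.39, 2.43 and 1.61 CPM in control and 12.7, 11.2 and 19 CPM in cadmium. The log2 fold change was 2.30 ± 0.68 (SE, edgeR, adjusted p = 0.0464), and this call ended without any 1 of the 6 libraries and with whole-library totals (adjusted p = 0.0694). The best NR hit of this cluster is an ethylene-responsive transcription factor 1-like protein of sesame, not RAP2-11. A sesame RAP2-11-like protein was at 12.4, 7.96 and 15.9 CPM in control and 2.52, 0.92 and 0 CPM in cadmium, and was not tested. The name thus does not show that a RAP2-11 gene rose. The wax regulator WIN1 had 1 tested cluster, with 3.66, 7.28 and 8.88 CPM in control and 5.94, 13.1 and 14.7 CPM in cadmium, and it did not pass.

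**Figure D2:**
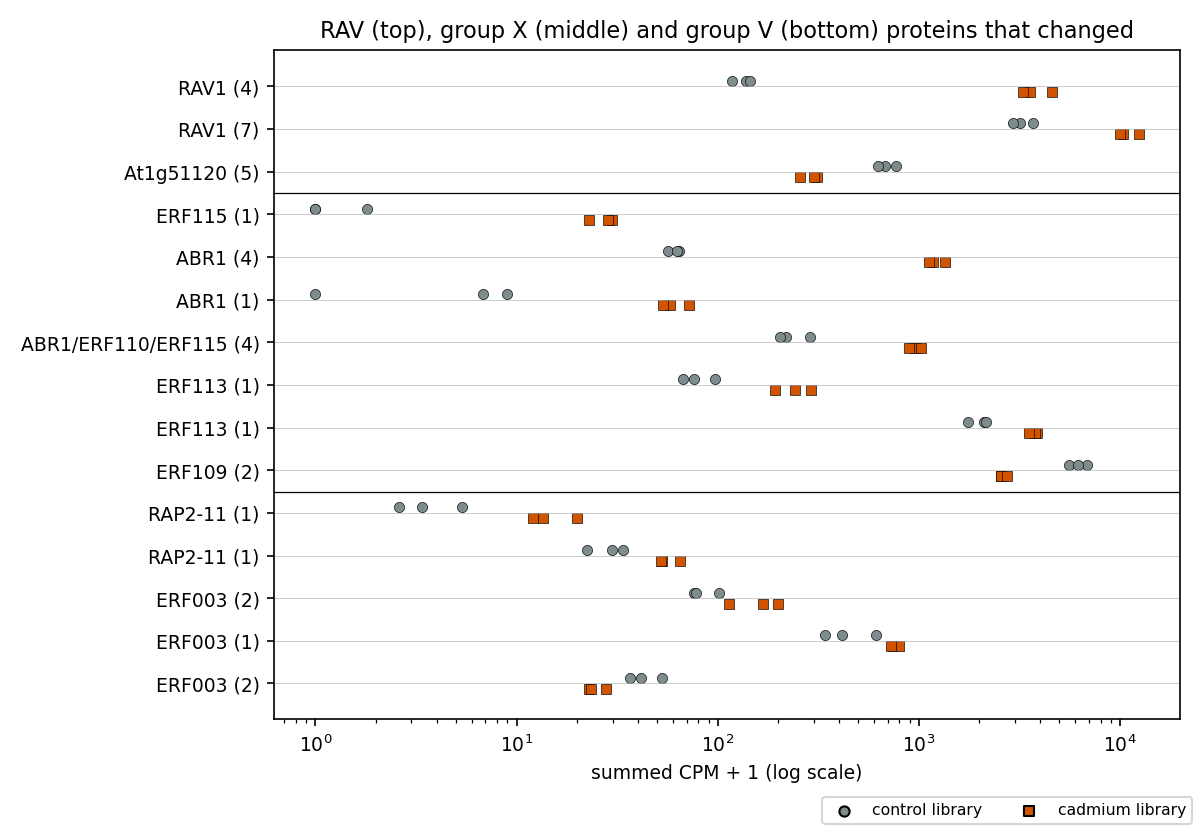
Summed CPM + 1 (log axis) in each control (grey circle) and cadmium (orange square) library for the NR proteins that changed in RAV, group X and group V, with the number of clusters summed in brackets. The RAV1 pair and the ABR1, ERF110, ERF113 and ERF115 sums shown lie higher in all 3 cadmium libraries, and At1g51120 and ERF109 lie lower.

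Group VIII, with the EAR repressors and a few developmental genes, held the most abundant members per transcript length. The ERF4 clusters Cluster-9033.83474, Cluster-9033.80868 and Cluster-9033.66796 had the highest FPKM of all members, with means over the 6 libraries of 697, 555 and 316 FPKM. ERF109 followed at 213, ERF9 at 209 and ERF3 at 180 FPKM. The group took 2.16% ± 0.124 of the regulator counts in control and 1.62% ± 0.0226 in cadmium, and all 3 cadmium libraries lay below the controls (two-sided exact permutation p = 0.1, the minimum for this design). Of 12 tested clusters 4 were higher and 5 lower, and with whole-library totals 3 of 11 rose and 5 fell. These are 75.0% and 72.7% of the clusters tested, beside 30.5% and 34.0% of all regulators.

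ERF4, an EAR repressor named here after tobacco relatives, fell in 4 of 4 tested clusters, though the call of the smallest, Cluster-9033.71441, ended without any 1 of the 6 libraries. Cluster-9033.83474 held 6623, 5929 and 6188 CPM in control and 3378, 3426 and 3391 CPM in cadmium. The cadmium values were nearly equal to each other, and the log2 fold change was −0.88 ± 0.06 (SE, edgeR, adjusted p = 0.000209). The protein sum over 3 clusters was 15190, 13324 and 14234 CPM in control and 7997, 7816 and 8155 CPM in cadmium, a 1.78-fold difference (edgeR, adjusted p = 7.79e-06).

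ERF12, a repressor in Arabidopsis, was lower in Cluster-9033.102927, at 1371, 1181 and 1508 CPM in control and 477, 519 and 695 CPM in cadmium. This was a log2 fold change of −1.26 ± 0.17 (SE, edgeR, adjusted p = 0.00285). The cluster Cluster-9033.76820 under the same protein had 906 ± 135 CPM in control and 1256 ± 161 CPM in cadmium and did not pass (edgeR, adjusted p = 0.0516). As a sum over 3 clusters the protein differed by −0.35 on the log2 scale (edgeR, adjusted p = 0.00605), over 1.5 times less than the single cluster.

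The other named repressor clusters were higher in cadmium. ERF9 (Cluster-9033.51396) stood at 2247, 2241 and 2215 CPM in control and 4070, 3845 and 4170 CPM in cadmium (log2 fold change 0.85 ± 0.05, SE, edgeR, adjusted p = 0.000183). ERF3, first described as a repressor in tobacco, rose in Cluster-9033.104182 from 1232, 1218 and 1141 CPM to 1762, 1725 and 1896 CPM. Its log2 fold change of 0.58 ± 0.07 (SE, edgeR, adjusted p = 0.00152) was 0.24 with whole-library totals (adjusted p = 0.0404). A second ERF3 protein, with 1 cluster and named after its values were seen, did not pass. Its protein sum was 900, 940 and 763 CPM in control and 930, 949 and 949 CPM in cadmium (edgeR, adjusted p = 0.267). The best NR hit of the ERF9 cluster is itself an ERF4-like protein of sesame, shared with an untested cluster named ERF4, so the names ERF4 and ERF9 do not separate genes cleanly here.

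A pair of developmental group VIII genes was nearly silent in control. ERF086, the lateral root and flower gene PUCHI of Arabidopsis, was at 2.2, 6.47 and 6.46 CPM in control and 35.6, 29 and 53.6 CPM in cadmium (Cluster-17623.0, log2 fold change 2.95 ± 0.59, SE, edgeR, adjusted p = 0.0129), and the call ended without cadmium replicate 3. LEP, which shapes the leaf stalk in Arabidopsis, was at 0 in all 3 controls and at 8.48, 31.8 and 31.1 CPM in cadmium (Cluster-7283.0). Against 3 counts over the control group it was at least 30.1-fold higher (edgeR, adjusted p = 0.0148), a call that ended without cadmium replicate 2 or 3. A second LEP cluster was not tested, and the LEP protein sum was 4.37, 6.37 and 6.36 CPM in control and 17.7, 36.1 and 33.5 CPM in cadmium (edgeR, adjusted p = 0.00177). Without cadmium replicate 3, group VIII had 2 clusters higher in place of 4.

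Group VI, with the cytokinin response factors and the tomato PTI6 type, had 6 clusters lower and 0 higher of 26 tested. Without control replicate 1 the count higher was 2, without control replicate 3 it was 1, and it was 1 with DESeq2 and 2 with limma-trend on FPKM. Its share of changed clusters, 23.1%, lay below the background of all regulators. The group took 0.432% ± 0.0231 of the regulator counts in control and 0.255% ± 0.0107 in cadmium, with no overlap (two-sided exact permutation p = 0.1, the minimum for this design). The median log2 fold change was −0.47, and −0.81 with whole-library totals (0 higher and 7 lower).

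CRF2, an Arabidopsis cytokinin response factor, had the smallest adjusted p of all members. In Cluster-9033.140245 the controls held 486, 462 and 457 CPM and the cadmium libraries 87.4, 89.9 and 78.7 CPM. Replicates differed little beside the gap, and the log2 fold change was −2.46 ± 0.11 (SE, edgeR, adjusted p = 6.83e-05). The protein sum over 3 clusters fell from 665, 614 and 623 CPM to 144, 150 and 164 CPM, a 4.16-fold difference (edgeR, adjusted p = 2.46e-07).

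PTI6, known in tomato as a partner of the Pto kinase, was lower in Cluster-9033.100921, at 501, 511 and 483 CPM in control and 147, 151 and 100.3 CPM in cadmium. The log2 fold change of −1.91 ± 0.18 (SE, edgeR, adjusted p = 0.000748) shrank to −0.81 for the protein sum over 11 clusters (edgeR, adjusted p = 1.23e-05). ERF118 was lower in Cluster-9033.138074, from 343, 353 and 364 CPM to 221, 190 and 206 CPM (log2 fold change −0.78 ± 0.11, SE, edgeR, adjusted p = 0.00289). Of 9 tested ERF118 clusters 3 passed, all lower. Its 3 protein sums differed by −0.49, −1.14 and −0.18 on the log2 scale, and the last did not pass (edgeR, adjusted p = 0.21).

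As protein sums, group VI had 2 proteins higher, 5 lower and 4 not passed. Of all NR proteins tested 60.3% changed, so the sums did not lie below the background as the single clusters did. The 2 higher proteins were at low level and were named after seeing their values. CRF5 summed to 3.65, 0 and 3.98 CPM in control and 22.7, 16.6 and 31.8 CPM in cadmium (edgeR, adjusted p = 0.00419). The NR name of this sum is PTI6 of sesame and not CRF5. A CRF1 cluster that is alone under its protein, with the NR name CRF4, was at 2.92, 3.19 and 3.18 CPM in control and 10.9, 9.24 and 9.44 CPM in cadmium (edgeR, adjusted p = 0.011). It did not pass in the test of single clusters. Another protein with clusters named CRF1, whose NR name is RAP2-11-like, was lower. It was at 72.9, 55.8 and 79.5 CPM in control and 18.5, 23.1 and 31.8 CPM in cadmium (edgeR, adjusted p = 0.00179).

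Cytokinin regulators outside the family were counted beside group VI. Of 21 tested type A response regulators, the early cytokinin-induced genes, 1 was higher and 11 were lower, with a median of −1.33. Of 49 tested type B response regulators, the activators upstream of them, 11 were higher and 4 lower, with a median of 0.40. Changed clusters were 57.1% of type A and 30.6% of type B, the latter near the 30.5% of all regulators. With whole-library totals the counts higher and lower were 1 and 13 for type A and 10 and 8 for type B. The shares were then 66.7% and 37.5%, beside 34.0% of all regulators.

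**Figure D3:**
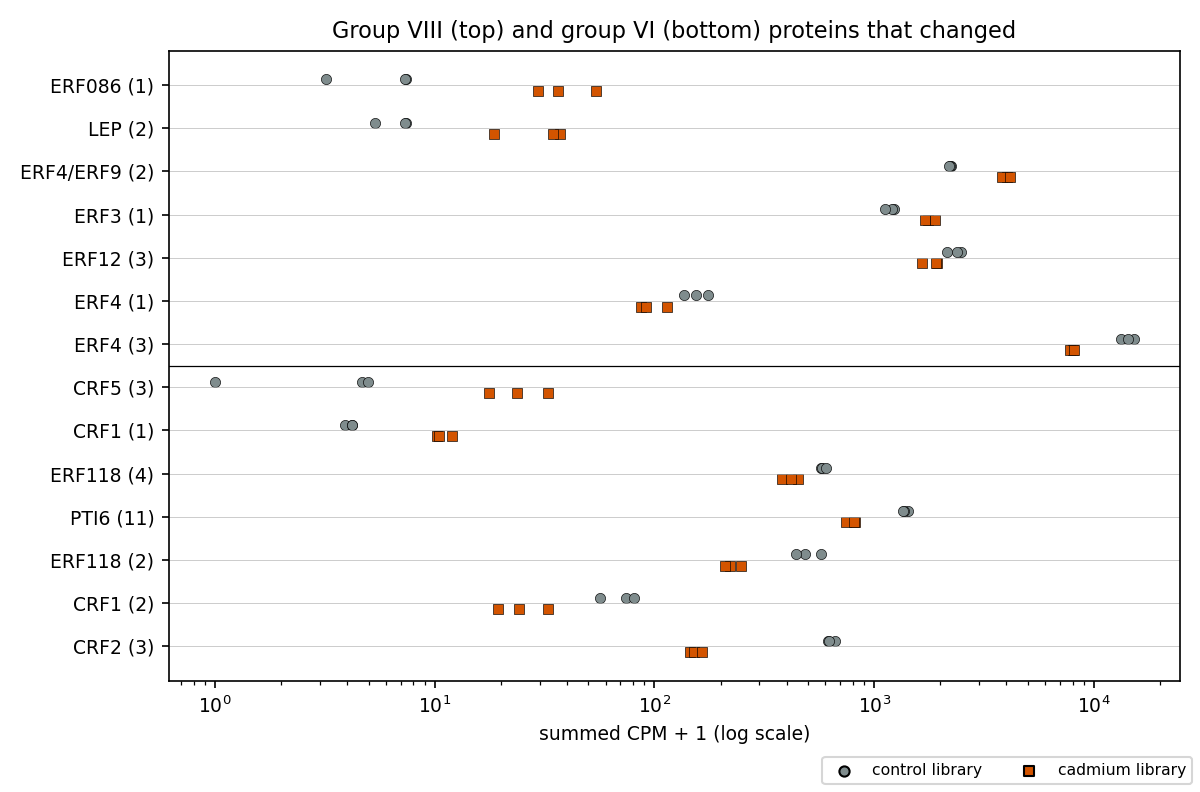
Summed CPM + 1 (log axis) in each control (grey circle) and cadmium (orange square) library for the NR proteins that changed in group VIII (top) and group VI (bottom), with the number of clusters summed in brackets. The ERF4 sum over 3 clusters lies at 13324 to 15190 CPM in control and 7816 to 8155 CPM in cadmium, and the proteins that were higher in cadmium include ERF086, LEP, CRF5 and CRF1 at the low end of the axis.

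The DREB subfamily members, relatives of the drought and cold factors that carry ERF, RAP2 or ABI4 names, formed the largest group. Of 53 tested clusters 10 were higher and 20 lower, with a median of −0.62. Scaled to whole-library totals, 9 clusters rose and 26 fell. Thus 56.6% of the tested clusters changed, and 66.0% with whole-library totals, beside 30.5% and 34.0% of all regulators. Together the 71 clusters took 2.01% ± 0.0805 of the regulator counts in control and 1.52% ± 0.0421 in cadmium, without overlap (two-sided exact permutation p = 0.1, the minimum for this design). By protein, 8 were higher, 11 lower and 10 did not pass, near the background of 60.3% of all NR proteins tested.

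ERF017 fell in most of its clusters. Of its 10 tested clusters 8 were lower, and all 10 had a negative log2 fold change, from −6.43 to −1.65. Cluster-9033.76388 held 869, 1033 and 856 CPM in control and 268, 315 and 297 CPM in cadmium (log2 fold change −1.65 ± 0.11, SE, edgeR, adjusted p = 0.00026). The 14 ERF017 clusters fall under 2 NR proteins, and both sums fell. The sum over 9 clusters fell from 3186, 4035 and 3141 CPM to 748, 657 and 789 CPM (edgeR, adjusted p = 4.49e-07), and the sum over 5 from 562, 660 and 491 CPM to 65.6, 80.4 and 95.3 CPM (edgeR, adjusted p = 8.58e-07). These are 4.72-fold and 7.10-fold differences.

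ERF025 and ERF035 were the members that fell furthest in this group by protein sum. ERF025 (Cluster-9033.92597) was at 248, 186 and 243 CPM in control and 6.78, 8.42 and 8.65 CPM in cadmium, and fell by 4.81 on the log2 scale (SE 0.23, edgeR, adjusted p = 8.55e-05). All 3 ERF025 clusters were lower, and the protein sum over 2 of them went from 587, 468 and 528 CPM to 52.1, 49.9 and 43.8 CPM. ERF035 (Cluster-9033.89335) was at 430, 277 and 327 CPM in control and 25.4, 20.6 and 10.4 CPM in cadmium, with a log2 fold change of −4.19 ± 0.37 (SE, edgeR, adjusted p = 0.000636). Its protein sum over 3 clusters, whose NR name is TINY-like, was 10.7-fold lower.

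The names ERF018 and ERF061 each covered proteins that went opposite ways. ERF018, known in Arabidopsis as the jasmonate-responsive factor ORA47, was lower in Cluster-9033.143615, at 619, 595 and 548 CPM in control and 241, 190 and 206 CPM in cadmium (log2 fold change −1.47 ± 0.12, SE, edgeR, adjusted p = 0.000498). The more abundant ERF018 cluster, Cluster-9033.55824, chosen after its values were seen, was at 1701, 1586 and 1388 CPM in control and 2221, 2046 and 2076 CPM in cadmium. Its log2 fold change of 0.44 (edgeR, adjusted p = 0.0133) was 0.09 with whole-library totals (adjusted p = 0.458), and its call ended without cadmium replicate 1. The best NR hits of these clusters carry other names, ERF017-like for the cluster that fell and ERF014 for the one that rose, while an ERF018-like protein is the best hit of 5 of the ERF017 clusters. The opposite directions thus belong to a shared Swiss-Prot name and not to a gene shown to be ERF018.

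ERF061 rose in Cluster-9033.143573 from 6.59, 8.9 and 14.5 CPM to 86.5, 81.4 and 97.8 CPM (log2 fold change 3.14 ± 0.39, SE, edgeR, adjusted p = 0.00205). The protein sum that holds it rose by 1.64, from 40.1, 50.2 and 46.9 CPM to 156, 124.8 and 146 CPM. A second ERF061 protein, at 1258, 1192 and 1023 CPM in control and 597, 533 and 571 CPM in cadmium, fell by 1.03 on the log2 scale (edgeR, adjusted p = 1.55e-05).

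The group also held members that rose clearly. ERF010 (Cluster-9033.68043) went from 125.2, 117 and 101 CPM to 422, 372 and 407 CPM (log2 fold change 1.80 ± 0.13, SE, edgeR, adjusted p = 0.000302), and RAP2-10 (Cluster-9033.31480) from 13.9, 25.1 and 17.8 CPM to 124.7, 138 and 169 CPM (2.92 ± 0.30, edgeR, adjusted p = 0.00111). These 2 names share 1 best NR protein, so as genes they cannot be told apart here, and their sum was 4.08-fold higher (edgeR, adjusted p = 6.05e-07). ERF022 and both ERF012 clusters, chosen after their values were seen, were higher as well, ERF022 from 65.2 ± 23.9 to 308 ± 31.7 CPM and the larger ERF012 cluster from 461 ± 102 to 932 ± 30.1 CPM.

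ERF020 showed the steepest rise in this group. Cluster-9033.154766 was at 27.8, 37.2 and 8.07 CPM in control and 612, 256 and 350 CPM in cadmium (log2 fold change 4.05 ± 0.62, SE, edgeR, adjusted p = 0.00451). Summed over its 4 clusters ERF020 went from 85.8 ± 11.7 to 974 ± 66.1 CPM, 11.4-fold higher (edgeR, adjusted p = 1.4e-07). All 4 clusters have an AP2 domain, but their best NR hit is an embryonic protein and not an ERF, so the name and the reads of these clusters are uncertain.

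RAP2-4, which in Arabidopsis answers light, ethylene and drought, had small differences for its main cluster. Of its 10 tested clusters 4 were lower and 0 higher. The most abundant, Cluster-9033.80509, was at 4384, 4263 and 3938 CPM in control and 3579, 3690 and 4003 CPM in cadmium and did not pass (edgeR, adjusted p = 0.136). Its protein sum over 4 clusters differed by −0.21 on the log2 scale (edgeR, adjusted p = 0.0246). Other proteins with clusters named RAP2-4 differed by −0.75, with the NR name RAP2-13, and by −0.83. A further one, with the NR name ERF060, differed by −0.21 and did not pass (edgeR, adjusted p = 0.477). ABI4, an abscisic acid and sugar response factor in Arabidopsis, had 1 tested cluster at 13.9, 11.2 and 15.9 CPM in control and 12.6, 12 and 7.73 CPM in cadmium as a protein sum, which did not pass (edgeR, adjusted p = 0.503).

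**Figure D4:**
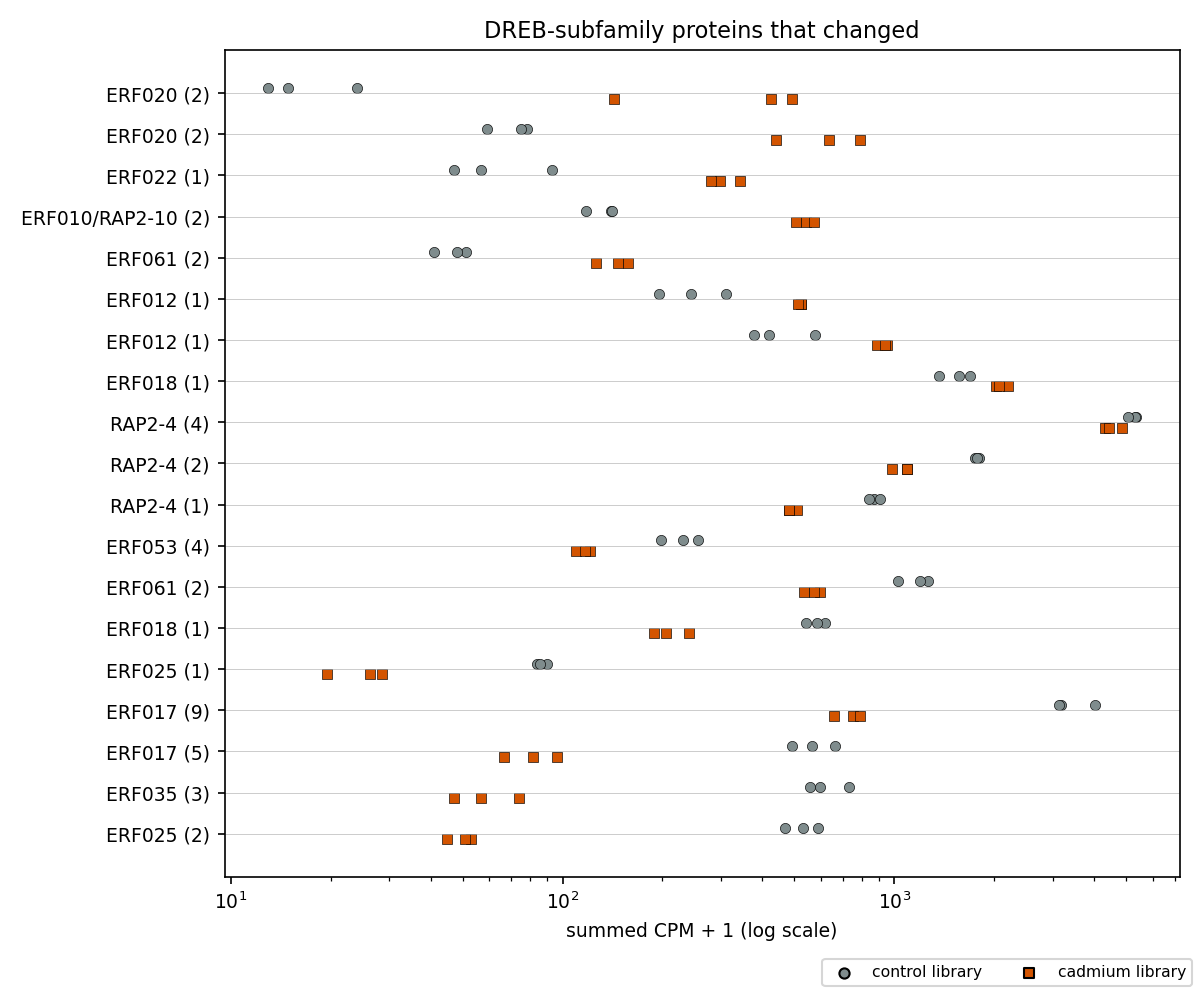
Summed CPM + 1 (log axis) in each control (grey circle) and cadmium (orange square) library for the NR proteins of the DREB subfamily that changed, with the number of clusters summed in brackets, ordered from higher to lower in cadmium. The ERF020 sums at the top and the ERF017, ERF035 and ERF025 sums at the bottom are the furthest apart between groups.

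The remaining members include WRI1, the activator of seed oil synthesis in Arabidopsis, with 27 clusters, the divergent AP2 protein At4g13040 with 15, and the tomato PTI5 type. Of 19 tested clusters 1 was higher and 3 lower, 21.1% in all, under the background. With whole-library totals 1 rose and 5 fell, and the count lower was 1 without any 1 of the controls or without cadmium replicate 2. PTI5, known in tomato for activating defence genes, was named after its values were seen: Cluster-9033.68303 was at 1415, 1461 and 1458 CPM in control and 707, 712 and 671 CPM in cadmium (log2 fold change −1.05 ± 0.06, SE, edgeR, adjusted p = 0.000142). At4g13040 had 0 of 7 tested clusters changed. Its isoform X2 was lower as a protein sum over 3 clusters, at 268, 278 and 292 CPM in control and 231, 214 and 200 CPM in cadmium (log2 fold change −0.38, edgeR, adjusted p = 0.013). The other At4g13040 protein sums did not pass.

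The WRI1 clusters gave the clearest case of single clusters and sums going apart. Cluster-9033.61398 rose from 0, 0 and 4.04 CPM to 105, 80.5 and 65.7 CPM (log2 fold change 5.88 ± 1.19, SE, edgeR, adjusted p = 0.0132). Its best NR protein is the AP2-like factor At1g16060 of sesame and not WRI1. Over the 8 clusters of that protein, however, the level was 508, 574 and 558 CPM in control and 559, 485 and 386 CPM in cadmium, with a log2 fold change of −0.20 (edgeR, adjusted p = 0.222). Cluster-9033.61397 went down from 22, 48.6 and 21 CPM to 0, 1.87 and 4.33 CPM (log2 fold change −3.82 ± 1.09, SE, edgeR, adjusted p = 0.0431), and the call ended without any 1 of 5 libraries. Its best NR hit is a hypothetical protein of Erythranthe guttata without a gene name. That protein sum over 4 clusters was lower, at 174, 282 and 205 CPM in control and 76.5, 31.4 and 90.1 CPM in cadmium (edgeR, adjusted p = 0.00152).

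Over the whole set, clusters and protein sums mostly moved the same way. Of the 74 changed clusters 16 were alone under their NR protein and 58 shared it. For 56 of these 58 the sum changed in the same direction, for 2 it did not pass, and for 0 it changed in the other direction. Each sum includes the counts of the changed cluster itself, and 60.3% of all NR proteins tested changed. The same direction is thus partly built in and is no independent check of the clusters. The exceptions were WRI1 (Cluster-9033.61398) and ERF110 (Cluster-9033.107480). For 16 changed clusters the log2 fold change of the sum was over 1.5 times smaller or reversed. The 0 proteins with clusters changed in both directions contrast with 3 descriptions that had both, ERF018, ERF061 and WRI1. The median coefficient of variation within a group was 23.9% for 118 member clusters that share a protein and 10.9% for the 48 sums over those proteins.

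**Figure D5:**
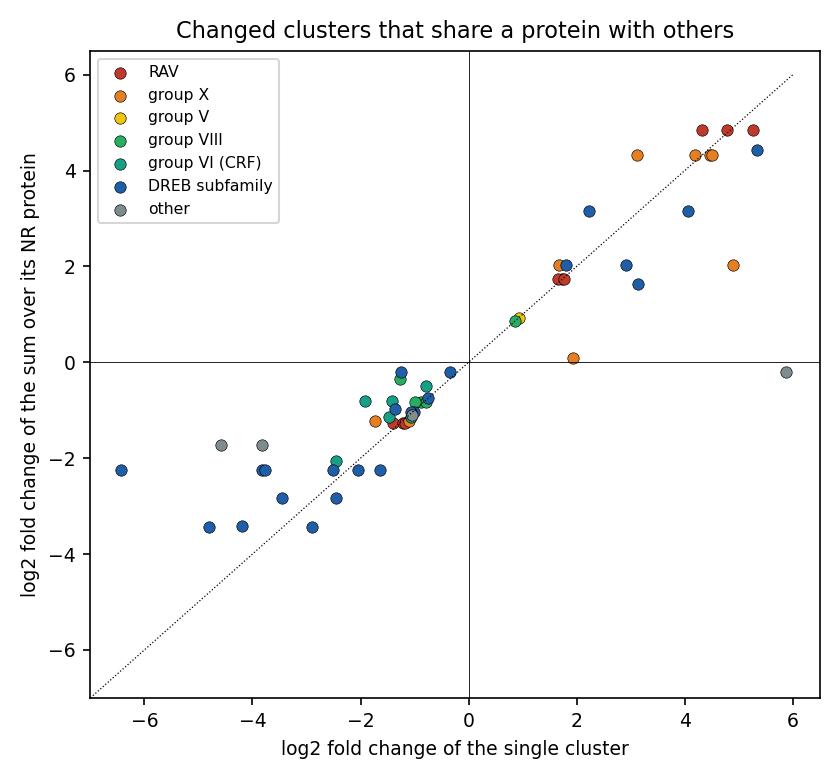
Log2 fold change of the sum over an NR protein (vertical axis) against that of the single changed cluster (horizontal axis) for the 57 changed clusters that share a protein and have a fitted fold change, coloured by group, with the line of equality dotted. One WRI1 cluster lies at 5.88 for the cluster and −0.20 for the sum, and most other points keep their sign. Each sum includes the plotted cluster.

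Regulators upstream of the ERFs in ethylene signalling were counted as lists beside the members. Of 16 tested clusters of EIN3 and EIN3-like activators 7 were higher and 2 lower, with a median log2 fold change of 0.37, and with whole-library totals 4 rose and 4 fell. Of 6 ethylene receptor clusters 3 were higher and 0 lower, and 1 was higher with whole-library totals. Changed clusters were 56.2% of the EIN3 list and 50.0% of the receptors, beside 30.5% of all regulators. With whole-library totals these shares were 50.0% and 16.7%, beside 34.0%. The members as a whole took 6.32% ± 0.116 of the regulator counts in control and 6.05% ± 0.178 in cadmium, where cadmium replicate 3 (6.23%) lay within the control range of 6.21% to 6.44% (two-sided exact permutation p = 0.2). As a share of the whole library they took 0.41% ± 0.00906 in control and 0.325% ± 0.0169 in cadmium (two-sided exact permutation p = 0.1, the minimum for this design), with no overlap.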

How the data were processed

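Root RNA from 3 control and 3 cadmium libraries was made into libraries with an Illumina TruSeq kit, per the labels' protocols. TopHat2 2.0.12 and Bowtie2 2.0.6 are listed in the submitters' processing notes without a role, and no source used here names an assembler or a counting tool. Expected counts per cluster were deposited by the authors, per the file headers, without scaling to depth. Per the file headers, the authors also deposited FPKM values, a log2 ratio of cadmium over control and its q-value.

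Counts were rounded and tested with edgeR 4.0.16 in R 4.3.3 over all regulators: filterByExpr (minimum count 10, minimum total 15), TMM scaling, a quasi-likelihood model of group alone, and Benjamini-Hochberg adjusted p-values with a threshold of 0.05. The common biological coefficient of variation was 0.573. Library totals were recovered from counts, FPKM and length, over clusters above 300 counts and 10 FPKM. CPM refer to TMM-normalised regulator totals, and protein sums have a fit and scaling of their own, so their CPM differ slightly. A group at 0 was set to 3 counts over the group for a bound, and counting intervals are exact at 95%. Alternatives used DESeq2 1.42.0 and limma 3.58.1 on log2(FPKM + 1) and log2(FPKM + 0.1). Tables and figures were made in Python 3.11.15 (numpy 2.4.6, pandas 2.3.3, matplotlib 3.10.9, scipy 1.17.1).

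The members, lists and tests were chosen with earlier results of these data known. Named members were taken by rule among changed clusters whose higher group averaged 10 counts or more and whose groups did not overlap: the 6 highest and 6 lowest log2 fold changes, up to 3 higher and 3 lower per group with the smallest adjusted p, and the 6 highest FPKM, with a description counted once per direction. This gave 28, and others are marked as chosen after their values were seen. Of the 219 members, 75 were not tested, 13 of them at 0 in every library. Libraries within a group differed beyond counting noise (chi-square per degree of freedom 11.6 to 15.6), so none was merged. P-values measure the spread between these libraries.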

Additional observations from a re-analysis of the deposited data

How the results depend on the processing

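Of the 74 changed members (35 higher, 39 lower), RLE size factors gave 74, a filter of 5 CPM in 3 libraries 73, no filter 64, DESeq2 86 and limma-trend on log2(FPKM + 0.1) 91. Limma-trend on log2(FPKM + 1) gave 93, with 59 lower. Sums over the best NR protein gave 25 proteins lower, and sums over the best Swiss-Prot hit gave 34 changed names, 17 higher and 17 lower. These sums hold fewer units than there are clusters. Leaving out 1 library gave 62 to 66 changed, 28 to 34 higher and 32 to 34 lower. The replicate numbers share only a number: the deviations of same-numbered libraries correlated by 0.00414, 0.0291 and −0.00361, and the fit with the replicate block gave 58 changed members, 26 higher and 32 lower. The share of the members differed by −0.271 percentage points of regulator counts between cadmium and control, by −0.36 to −0.18 with 1 library left out and by −0.0846 of the whole library. Of the 28 named members, all kept their direction in each setting that gave a value, except WRI1 (Cluster-9033.61398), which reversed to −0.197 as a protein sum. Calls were kept less often. With the replicate block 6 of the 28 lost their call, with no filter 3, with whole-library totals 2, and with 1 library left out 2 to 4. LEP (Cluster-7283.0) was not tested with whole-library totals. Group VI had 10 clusters lower in place of 6 with log2(FPKM + 1). Low counts limit the result: 39 members had under 10 counts in every library.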

Other observations

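Some members outside the test were present in 1 library or 1 group alone. These were picked after their values were seen. The untested member with the highest mean level was a WRI1 cluster (Cluster-9033.61404) at 222.8 CPM in control replicate 3 and 0 in the other 5 libraries, a mean of 37.1 CPM over the 6. A PTI6 cluster (Cluster-9033.58635) was at 132 CPM in the same library and at 0 elsewhere. An ERF053 cluster (Cluster-9033.40650), of a drought-related type in Arabidopsis, was at 52.7 and 58.3 CPM in control replicates 1 and 2 and at 0 in the other libraries. The shoot-regeneration gene ESR2 of Arabidopsis had 1 untested cluster (Cluster-6182.0), at 5.86, 6.47 and 7.27 CPM in control and 1.7, 1.87 and 0 CPM in cadmium. The cuticle regulator SHINE 3 (Cluster-9126.1) stayed at or under 1.87 CPM in every library.

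The ERF053 clusters did not share a direction. Cluster-9033.13188 was lower, at 103 ± 33.8 CPM in control and 40 ± 7.53 CPM in cadmium (edgeR, adjusted p = 0.0221), a call that ended without control replicate 1 and without cadmium replicate 2 or 3. Cluster-9033.78482 was at 61 ± 30.4 and 142 ± 47.7 CPM and did not pass (edgeR, adjusted p = 0.0827). Summed by protein, 1 ERF053 protein was lower, at 255, 197 and 229 CPM in control and 120, 109 and 115.9 CPM in cadmium (edgeR, adjusted p = 0.00024). The other had 264, 257 and 192 CPM in control and 229, 197 and 261 CPM in cadmium (edgeR, adjusted p = 0.784).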
